A study of Homo sapiens with 32 samples.

Results

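The genes described here make catecholamines or build the cargo of the dense-core granule, the secretory vesicle of adrenal and sympathetic cells. They were chosen by name as 10 of the 22610 gene entries in the authors' table: the enzymes TH, DDC and DBH, the chromogranins CHGA and CHGB, the secretogranins SCG2 and SCG3, the granin-like precursor VGF, and the inhibitor proteins SCG5 and PCSK1N. All 10 passed the filter on low values and entered the fit. The opposite movement of VGF and SCG3 under CBD was part of the reason for choosing the set, so the CBD response of that pair is given as a description with no test, and calls with CBD are counted over the other 8. Those 8 were also chosen with earlier results of these data known. Their counts beside the shares of all genes are therefore no independent test of the set.

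The transcriptomes came from SK-N-BE(2), a human neuroblastoma line with a sympathetic origin, exposed to 20 μM cannabidiol (CBD) dissolved in ethanol or to vehicle, which was 0.1% ethanol. Cells were harvested after 3, 6, 12 and 24 h, 4 replicates for each treatment at each time, and the 32 samples form 8 groups. Every culture was plated the day before. CBD was given in ethanol, but the labels state the share of ethanol for vehicle alone. The study used 1 line for these libraries, and nothing in the labels says on which days the replicates were cultured, so the p-values measure the spread between these samples.

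Catecholamine synthesis runs in 3 enzymatic steps in noradrenergic cells. TH, tyrosine hydroxylase, is the rate-limiting enzyme and makes L-DOPA from tyrosine with tetrahydrobiopterin as cofactor. DDC, aromatic L-amino acid decarboxylase, turns L-DOPA into dopamine, and DBH, dopamine beta-hydroxylase, is a copper enzyme inside the granule that turns dopamine into noradrenaline. Granins are acidic, calcium-binding proteins that aggregate in the secretory pathway, help granules to form and are cut into peptides by prohormone convertases. Neuroblastoma derives from the sympathoadrenal lineage, in which both systems are active.

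Levels are in FPKM, the authors' read counts scaled for transcript length and library size. Differences are on the log2(FPKM + 1) scale, which understates the change of low genes, and were tested with limma over 12621 genes with a mean of at least 1 FPKM. A gene is called changed when its Benjamini-Hochberg adjusted p within a comparison is under 0.01. FPKM keep no read number. Depth relative to the median sample, read from the steps between low values, ranged from 0.794 to 1.20 and gives only ratios between samples. Samples correlated with the rest of their own group at a mean r of 0.951 to 0.963 across genes, and 12 of 32 correlated better on average with another group. In bulk RNA, fewer cells carrying a transcript and less of it per cell cannot be told apart.

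On GRCh37, the build of the authors' alignment, the enzyme genes lie at chr11:2185159-2193045 (TH, minus strand), chr7:50526134-50633102 (DDC, minus strand) and chr9:136501485-136524451 (DBH, plus strand). CHGA lies at chr14:93389495-93401630 and CHGB at chr20:5892156-5905999, both on the plus strand. SCG2 occupies chr2:224461658-224467079 on the minus strand and SCG3 chr15:51973689-52013223 on the plus strand. VGF, with 2 exons in its main transcript, lies at chr7:100805790-100808850 on the minus strand. SCG5 lies at chr15:32933877-32989299 on the plus strand, and PCSK1N at chrX:48689506-48694012 on the minus strand. Levels refer to whole genes, all exons and untranslated regions included. Antisense genes overlap the exons of DDC (DDC-AS1, 114 bases) and DBH (DBH-AS1, 118 bases). At a mean below 2 FPKM both were low. The study's methods describe stranded reads, but the library kit named there differs from the one in the labels, so how well their reads were kept apart from those of their partners is not known. The read-through transcript ARHGAP11A-SCG5 shares 1129 exon bases with SCG5 on the same strand, so the SCG5 values may include it.

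The 250 bases before the start site are shown for 4 genes that changed most or in opposite directions, from the RefSeq promoter table on GRCh38.p14, which held 7 of the 10 genes. Capitals mark the cAMP response element (CRE, TGACGTCA) or its core (TGACG), to which the CREB family of factors binds in response to cAMP and calcium signals. The CHGA sequence is chr14:92922900-92923149 and the VGF sequence chr7:101165570-101165819 (minus strand). DBH is read from chr9:133636113-133636362 and SCG3 from chr15:51681253-51681502. All are written 5′ to 3′ along the gene.
CHGA: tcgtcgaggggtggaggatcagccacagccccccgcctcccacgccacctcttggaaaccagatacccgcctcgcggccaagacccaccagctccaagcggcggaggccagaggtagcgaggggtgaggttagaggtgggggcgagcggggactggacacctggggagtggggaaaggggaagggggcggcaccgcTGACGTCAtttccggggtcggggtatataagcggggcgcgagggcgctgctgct
VGF: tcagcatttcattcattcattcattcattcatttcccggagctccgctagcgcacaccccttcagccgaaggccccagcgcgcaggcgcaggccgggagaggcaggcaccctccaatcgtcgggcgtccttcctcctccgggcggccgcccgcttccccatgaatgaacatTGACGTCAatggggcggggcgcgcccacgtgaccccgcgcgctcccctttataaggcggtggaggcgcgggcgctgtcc
DBH: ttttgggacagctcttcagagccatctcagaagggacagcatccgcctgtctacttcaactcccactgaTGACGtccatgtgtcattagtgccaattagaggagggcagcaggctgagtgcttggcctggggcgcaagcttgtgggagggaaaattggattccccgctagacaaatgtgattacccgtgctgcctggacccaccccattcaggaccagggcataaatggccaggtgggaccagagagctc
SCG3: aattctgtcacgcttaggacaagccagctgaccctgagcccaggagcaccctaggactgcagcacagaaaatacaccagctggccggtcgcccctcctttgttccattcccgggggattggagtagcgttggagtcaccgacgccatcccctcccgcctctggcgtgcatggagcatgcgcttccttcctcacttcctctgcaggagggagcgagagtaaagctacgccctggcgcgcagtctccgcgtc
Both CHGA and VGF held the full CRE, 54 and 79 bases before the start, where 1.65% of 35116 promoters hold one in the same window on either strand. The RNA of these 2 genes moved in opposite directions with CBD. DBH held the core alone, 181 bases before the start, and SCG5 held it 17 bases before, against 21.22% of all promoters. The full element contains the core on both strands, so these searches overlap. SCG3 had no match to either. The AP-1 element (TGANTCA, either strand, 6.57% of promoters) was found in PCSK1N alone, 246 bases before the start, and TATAAA on the strand of the gene (6.8% of promoters) in none of the 7 genes. A match describes letters in a window and not binding. No promoter is shown for TH, CHGB or SCG2.

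CHGA was the most abundant of the 10 transcripts in all 8 groups, followed by TH, SCG2 and SCG3. Vehicle at 3 h had means of 461 ± 14.3 (SD, n = 4) FPKM for CHGA, 260.4 ± 31.7 for TH, 127 ± 4.75 for SCG2 and 69.4 ± 3.55 for SCG3. DDC and CHGB came next at 49.0 ± 0.852 and 38.7 ± 1.80 FPKM, then SCG5 at 24.0 ± 0.366, VGF at 17.3 ± 2.24 and PCSK1N at 10.9 ± 2.22. DBH was lowest at 6.75 ± 0.217 FPKM. FPKM are per length, so this order compares genes. Neighbours in the order did not overlap between samples, with 4 exceptions: PCSK1N and DBH in vehicle at 6 h, DDC and CHGB in vehicle at 24 h, DBH and VGF in vehicle at 24 h, and VGF and SCG5 with CBD at 6 h. DBH was lowest of the 10 in every group but vehicle at 24 h, where it stood above VGF and PCSK1N in mean level.

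**Figure D1:**
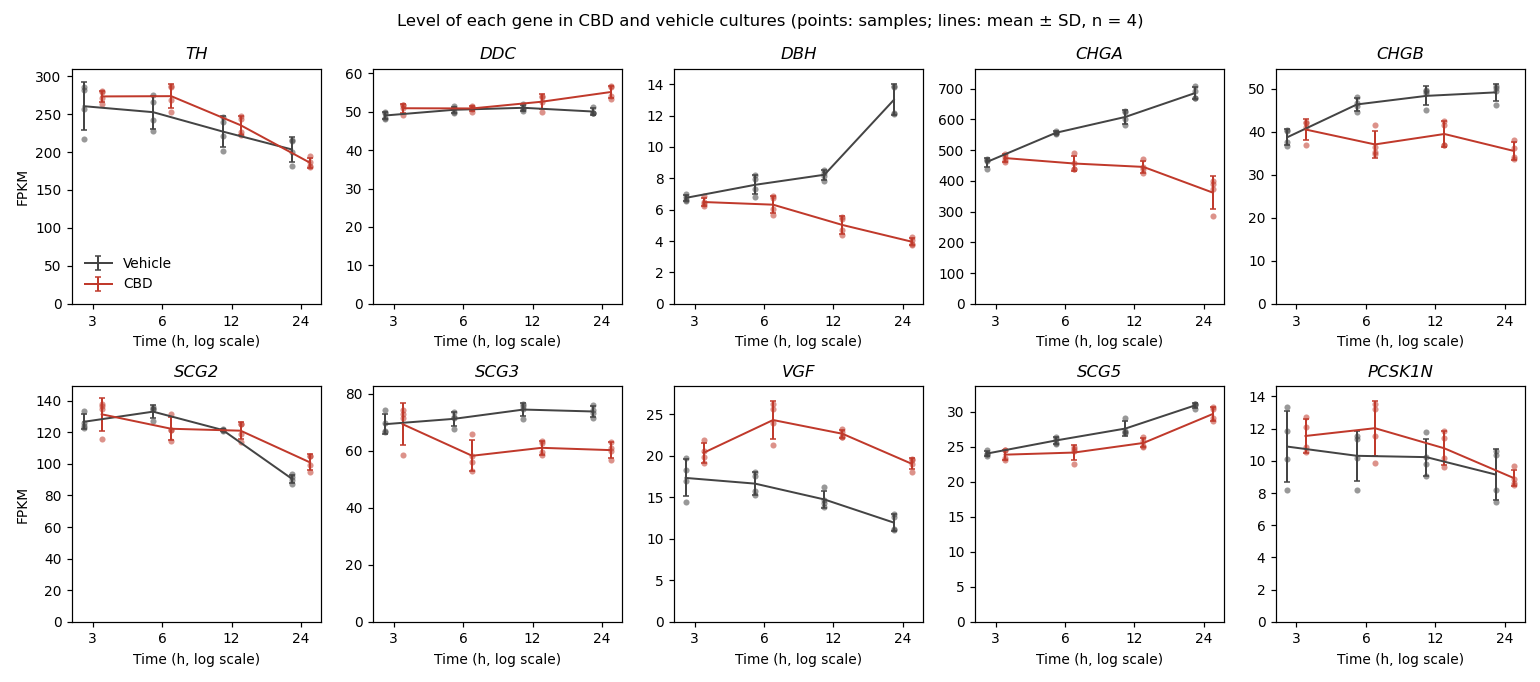
Level of each of the 10 genes (FPKM, linear axis from 0) against time on a log scale, for vehicle (grey) and CBD (red). Points are samples and lines join group means with SD bars (n = 4). CHGA parts from 6 h and DBH from 12 h, with vehicle above CBD, VGF is higher with CBD from 6 h, and TH and PCSK1N overlap at every time.

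DBH, CHGA and CHGB were called lower with CBD from 6 h on, and none of the 8 tested genes passed at 3 h. The DBH samples of the 2 treatments still overlapped at 6 h. With the 6 h samples fitted alone, CHGA kept its call and DBH and CHGB did not. The limma test called 0 of 8 at 3 h, with 1 at an unadjusted p under 0.05 (DDC), where 1.18% of all genes tested were called higher and 1.28% lower. At 6 h 0 of 8 were higher and 3 lower (DBH, CHGA and CHGB), against 4.07% and 6.13% of all genes. By 12 h SCG5 had joined the lower ones, which made 0 higher and 4 lower against 8.85% and 11.2%. At 24 h 2 were higher (SCG2 and DDC) and 3 lower (DBH, CHGA and CHGB), against 20.8% and 21.3%. The 4 CBD samples lay wholly outside the range of the 4 vehicle samples for 0, 3, 4 and 5 of the 8 genes at 3, 6, 12 and 24 h. Over all genes tested that share was 9.88%, 19.6%, 30.3% and 51%. The median log2 fold change of the 8 was 0.05, -0.11, -0.06 and -0.09, beside 0.01, -0.00, -0.00 and -0.00 over all genes. VGF was higher and SCG3 lower with CBD from 6 h on, with no overlap between the groups.

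**Figure D2:**
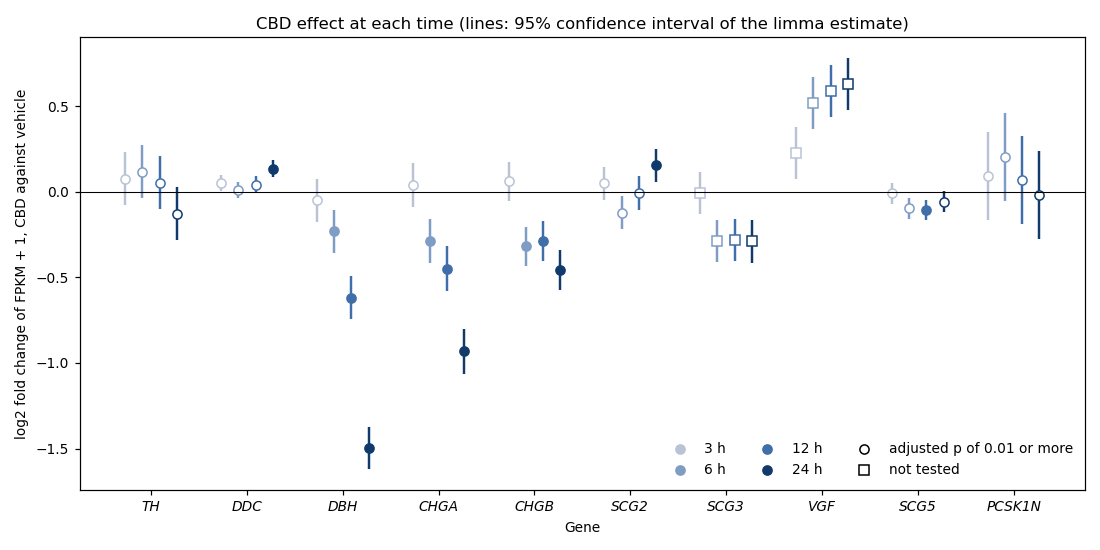
Log2 fold change of FPKM + 1, CBD against vehicle, for each gene at 3, 6, 12 and 24 h (light to dark). Lines are 95% confidence intervals and filled circles passed an adjusted p of 0.01. Squares mark VGF and SCG3, whose intervals are a description and not a test. The estimate for DBH falls to -1.496 at 24 h, VGF stays between 0.52 and 0.63 from 6 h on, and no circle is filled at 3 h.

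DBH, which makes noradrenaline from dopamine, showed the largest change of the 10. Vehicle samples measured 7.01, 6.83, 6.54 and 6.61 FPKM at 3 h and CBD samples 6.86, 6.33, 6.50 and 6.25. At 6 h vehicle gave 6.84, 7.95, 8.20 and 7.34 and CBD 6.72, 6.03, 6.84 and 5.68 FPKM, so the groups met at 6.84. At 12 h vehicle gave 7.82, 8.36, 8.56 and 8.17 and CBD 4.40, 5.53, 5.43 and 4.74. From 12 h on every CBD sample was below every vehicle sample. At 24 h vehicle stood at 13.8, 12.2, 13.9 and 12.1 and CBD at 4.23, 3.74, 4.07 and 3.78 FPKM, with means of 12.998 ± 0.985 and 3.96 ± 0.235 (SD, n = 4). The CBD mean fell by 69.6% relative to vehicle. The log2 fold change was -0.05 at 3 h (adjusted p = 0.674), -0.23 at 6 h (adjusted p = 0.00839), -0.62 at 12 h (adjusted p = 1.18e-08) and -1.496 at 24 h (SE 0.06, adjusted p = 7.89e-17). The 6 h call was lost with relative depth in the model (adjusted p = 0.0215), without a filter on low FPKM (0.0148) and with that time fitted alone (0.0749), in a range of 0.000916 to 0.0749 over the alternatives. It was also lost without vehicle replicate 2, 3 or 4 or CBD replicate 2 or 4 (adjusted p of 0.0142 to 0.0415).

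In vehicle alone the DBH level rose with time in culture, and with CBD it fell. Vehicle at 24 h against 3 h gave a log2 change of 0.85 (SE 0.06, adjusted p = 3.23e-12), and CBD at 24 h against 3 h gave -0.60 (adjusted p = 1.37e-09). The difference at 24 h therefore holds a rise in vehicle and a fall in CBD. Both are measured against the 3 h samples of their own treatment, and the CBD effect at 24 h uses the same 24 h samples.

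The enzymes before DBH changed far less. TH ranged from 181 to 287 FPKM over all 32 samples, and vehicle and CBD samples overlapped at every time. At 24 h vehicle gave 216, 215, 200.3 and 182 FPKM and CBD 181, 187, 195 and 181. The log2 fold change of TH was 0.08, 0.12, 0.05 and -0.13 at 3, 6, 12 and 24 h (adjusted p = 0.582, 0.294, 0.640 and 0.163), with a 95% interval of -0.28 to 0.03 at 24 h. After a correction for GC content and length, chosen after the data were seen, TH was called lower at 24 h (-0.15, adjusted p = 0.00422, with a range of 0.00422 to 0.382 over the alternatives). TH fell with time in both treatments, by 0.35 in vehicle (adjusted p = 0.000206) and by 0.55 with CBD (adjusted p = 2.40e-07) on the log2 scale.

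DDC was the steadiest of the enzymes, between 48.1 and 56.7 FPKM in the 32 samples. At 24 h vehicle gave 49.6, 49.6, 51.2 and 49.7 FPKM and CBD 54.1, 56.7, 56.4 and 53.3, with no overlap. The difference was small, a log2 fold change of 0.14 (SE 0.02, adjusted p = 1.74e-05), or 10.2% of the vehicle mean. Before 24 h the log2 fold change of DDC was between 0.01 and 0.05 and not called. The level of DBH per DDC, a ratio of FPKM within a sample, was 0.244 to 0.279 in vehicle and 0.0660 to 0.0783 with CBD at 24 h, and 0.133 to 0.141 and 0.122 to 0.139 at 3 h. The last enzyme of the path thus changed relative to the one before it, while the 3 h ranges overlap.

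CHGA encodes chromogranin A, the main soluble protein of chromaffin granules and a serum marker of neuroendocrine tumours. Vehicle samples measured 465, 468, 472 and 440.2 FPKM at 3 h and CBD samples 462, 478, 489 and 468. At 6 h vehicle gave 555, 556, 563 and 552 and CBD 439.5, 457, 440.3 and 490.0 FPKM. At 12 h vehicle gave 581, 624, 627 and 601 and CBD 446, 439.6, 471 and 425. CBD samples were below all vehicle samples at each time from 6 h. At 24 h vehicle stood at 709, 669.9, 694 and 669.9 FPKM and CBD at 373, 285, 399 and 391, of which replicate 2 was lowest. The log2 fold change of CHGA was 0.04 at 3 h (adjusted p = 0.751), -0.29 at 6 h (0.00197), -0.45 at 12 h (4.33e-06) and -0.93 at 24 h (SE 0.06, adjusted p = 2.85e-12). Without CBD replicate 2 it was -0.82 at 24 h (adjusted p = 2.95e-15). The CBD mean of 362 ± 52.6 FPKM at 24 h differed from the vehicle mean of 686 ± 19.2 by -47.2%.

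Like DBH, CHGA rose in vehicle and fell with CBD over the day. The log2 change from 3 to 24 h was 0.57 in vehicle (adjusted p = 1.21e-08) and -0.40 with CBD (adjusted p = 2.51e-06). CHGA per SCG2 went from a mean of 3.65 ± 0.241 to 7.57 ± 0.154 in vehicle between 3 and 24 h, whereas with CBD it was 3.62 ± 0.259 at 3 h and 3.60 ± 0.596 at 24 h.

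CHGB, the second chromogranin, moved the same way by a smaller amount. At 3 h vehicle gave 37.7, 36.7, 40.1 and 40.4 FPKM and CBD 36.8, 42.0, 42.2 and 41.0. At 6 h vehicle gave 46.8, 44.6, 48.0 and 46.0 and CBD 36.3, 35.3, 34.9 and 41.6. At 12 h vehicle gave 45.0, 49.6, 49.7 and 49.0 and CBD 41.4, 36.99, 42.5 and 36.96 FPKM. The groups were apart at 6, 12 and 24 h. Vehicle at 24 h measured 50.6, 46.1, 49.6 and 50.2 and CBD 33.6, 34.1, 38.1 and 36.3 FPKM. The log2 fold change of CHGB was 0.06, -0.32, -0.29 and -0.46 at 3, 6, 12 and 24 h (SE 0.06, adjusted p = 0.545, 0.000182, 0.000274 and 1.39e-07). Fitted on the 6 h samples alone, CHGB missed the threshold (adjusted p = 0.0146, in a range of 8.18e-05 to 0.0146). From 3 to 24 h CHGB rose by 0.34 in vehicle (adjusted p = 8.36e-06) and fell by 0.18 with CBD (adjusted p = 0.00453), and this second call was lost under quantile normalization (0.234) and GC correction (0.0232).

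SCG3, secretogranin III, binds cholesterol-rich granule membrane and tethers CHGA to it. At 3 h vehicle gave 66.9, 66.6, 69.8 and 74.2 FPKM and CBD 58.6, 72.9, 71.5 and 74.5, with equal means of 69.4. At 6 h vehicle gave 71.5, 67.7, 72.0 and 73.8 and CBD 58.0, 56.2, 53.0 and 65.9 FPKM. At 12 h vehicle gave 71.1, 75.6, 74.9 and 76.5 and CBD 62.7, 59.7, 63.5 and 58.4. All CBD samples were below all vehicle samples from 6 h. At 24 h vehicle measured 73.2, 71.5, 74.4 and 76.2 and CBD 56.7, 63.3, 60.0 and 61.1 FPKM. The log2 fold change of SCG3 was -0.00, -0.29, -0.28 and -0.29 at 3, 6, 12 and 24 h (SE 0.06). The CBD mean of SCG3 differed from the vehicle mean by -18.2%, -18.03% and -18.4% at these later times.

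VGF, a precursor first known as induced by nerve growth factor, yields peptides that are released from granules and went the other way. Vehicle samples measured 19.7, 18.3, 16.9 and 14.5 FPKM at 3 h and CBD samples 19.8, 20.6, 19.2 and 21.9. At 6 h vehicle gave 17.6, 18.1, 15.7 and 15.3 and CBD 21.3, 26.3, 25.7 and 24.0. At 12 h vehicle gave 14.7, 16.2, 14.3 and 13.8 and CBD 22.2, 23.3, 22.9 and 22.3 FPKM. Every CBD sample exceeded every vehicle sample from 6 h. At 24 h vehicle stood at 12.7, 12.9, 11.1 and 11.1 and CBD at 18.1, 19.6, 19.5 and 19.0 FPKM. CBD means exceeded vehicle means by 46.0%, 53.7% and 59.3% at 6, 12 and 24 h, and the log2 fold changes were 0.52, 0.59 and 0.63 (SE 0.07). VGF fell by 0.50 from 3 to 24 h in vehicle on the log2 scale (adjusted p = 1.52e-06). With CBD the change was -0.09, as a description.

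At 3 h the log2 fold change of VGF was 0.23, as a description. Corrected for GC content and length it was 0.05 at 3 h, and 0.44, 0.54 and 0.58 at 6, 12 and 24 h. At 70.1% GC, VGF was above 99.5% of the genes tested, whose median was 49.4%.

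The ratio of VGF to SCG3 within a sample puts both movements together. In vehicle it was 0.295, 0.275, 0.242 and 0.195 at 3 h and 0.173, 0.181, 0.149 and 0.146 at 24 h. With CBD it was 0.339, 0.282, 0.268 and 0.295 at 3 h and 0.319, 0.309, 0.325 and 0.311 at 24 h. The groups overlap at 3 h only: at 6 h vehicle ranged from 0.207 to 0.267 and CBD from 0.364 to 0.485, and at 12 h the ranges were 0.180 to 0.215 and 0.354 to 0.390. In vehicle the ratio was lower at later times, and with CBD its mean was highest at 6 h, 0.421 ± 0.0643.

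The entries most like VGF over the 32 samples were SLC3A2, an amino acid transporter subunit (Pearson r = 0.95), NADK, the cytosolic NAD kinase (0.95), and PTGER2, a prostaglandin receptor (0.94). Most like SCG3 were ELF2, a transcription factor of the ETS family (0.91), CDH18, a cadherin (0.89), and RBMX, an RNA-binding protein (0.88). These correlations of log2(FPKM + 1) describe 32 samples that share groups, depth and base composition.

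SCG2, the precursor of secretoneurin, declined with time in both treatments and ended higher with CBD. Vehicle gave 126, 122.995, 124 and 134 FPKM at 3 h and 91.7, 87.3, 93.6 and 89.6 at 24 h. CBD gave 116, 138, 135 and 137 FPKM at 3 h and 94.6, 105, 105 and 99.2 at 24 h. The groups did not overlap at 24 h, with the highest vehicle sample at 93.6 and the lowest CBD sample at 94.6. SCG2 fell from 3 to 24 h by 0.48 in vehicle (adjusted p = 1.40e-09) and by 0.38 with CBD (adjusted p = 6.30e-08) on the log2 scale. The log2 fold change at 24 h was 0.15 (SE 0.05, adjusted p = 0.00748). That call was lost under median-ratio scaling (adjusted p = 0.0201) and 3 other alternatives (0.0103 to 0.0119), in a range of 0.00155 to 0.0201, and without vehicle replicate 1, 2 or 4 or CBD replicate 2, 3 or 4 (0.0112 to 0.0301).

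SCG5 (7B2), the chaperone and inhibitor of prohormone convertase PC2, rose in both treatments. Its vehicle range went from 23.6 to 24.5 FPKM at 3 h up to 30.4 to 31.1 at 24 h, and its CBD range from 23.0 to 24.5 up to 28.6 to 30.7. From 3 to 24 h SCG5 rose by 0.35 in vehicle (adjusted p = 5.60e-11) and 0.30 with CBD (adjusted p = 4.24e-10). CBD against vehicle gave log2 fold changes of -0.01, -0.10, -0.11 and -0.06 (SE 0.03), of which 12 h was called (adjusted p = 0.00581). At 12 h vehicle gave 27.2, 27.0, 29.1 and 27.1 and CBD 25.8, 25.0, 26.3 and 25.0 FPKM. The call was lost under 4 alternatives (adjusted p of 0.0123 to 0.0379, in a range of 0.00458 to 0.0379) and without vehicle replicate 3 or CBD replicate 1, 2 or 4 (up to 0.0381). PCSK2, which encodes PC2 itself, was at 0.0341 FPKM or less in all samples.

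PCSK1N (proSAAS), the inhibitor of convertase PC1/3, was not called at any time with CBD. It ranged from 7.42 to 13.5 FPKM, and its log2 fold changes of 0.09, 0.20, 0.07 and -0.02 had the widest intervals of the 10 genes, -0.28 to 0.24 at 24 h. Within vehicle alone it spread from 8.22 to 13.4 FPKM at 3 h and from 7.42 to 10.6 at 24 h.

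Whether the CBD effect itself differed between 24 h and 3 h was tested by the interaction of treatment and time. The effect was more negative at 24 h for DBH (-1.45, SE 0.09, adjusted p = 6.57e-13), CHGA (-0.97, adjusted p = 2.78e-09) and CHGB (-0.52, adjusted p = 9.41e-06). That is 0 higher and 3 lower of 8, against 12.9% and 14.3% of all genes. TH, DDC, SCG2, SCG5 and PCSK1N gave -0.20, 0.08, 0.10, -0.05 and -0.11, none called. For SCG3 and VGF the difference between the effects was -0.28 and 0.40, as a description.

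Between 3 and 24 h in vehicle, 4 of 10 rose (DBH, CHGA, CHGB and SCG5) and 3 fell (TH, SCG2 and VGF), where 26.6% and 31.1% of all genes did. With CBD over the same interval, of the 8 genes without VGF and SCG3, 2 rose (SCG5 and DDC) and 5 fell (TH, DBH, CHGA, CHGB and SCG2), against 32.1% and 35.7%. DDC rose by 0.11 with CBD (adjusted p = 8.94e-05), a call lost under median-ratio scaling (0.0194, in a range of 1.02e-10 to 0.0194). For SCG3 the change with CBD was -0.19, as a description, in a range of -0.25 to -0.07 over the alternatives. Its vehicle change was 0.09 (adjusted p = 0.193). The call of the CHGB fall with CBD was lost on leaving out any 1 of 5 of the 8 samples, CBD at 3 h replicates 2, 3 and 4 among them.

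Across the 32 samples the log2 levels of DBH and CHGA (Pearson r = 0.91) and of CHGA and CHGB (0.90) were most alike, while TH and SCG5 (-0.83), SCG2 and SCG5 (-0.77) and VGF with CHGB, DBH and SCG3 (-0.73 each) were least alike. Once each group's mean was taken away, DBH and CHGA no longer went together (0.16). Within groups the closest were SCG2 with SCG3 (0.88), TH with PCSK1N (0.87), VGF with PCSK1N (0.85) and TH with VGF (0.84). TH, VGF and PCSK1N are GC-rich, at 65.8%, 70.1% and 65.0%, and SCG2 and SCG3 GC-poor, at 43.3% and 41.3%. For each sample, the slope of all genes' deviations on GC content was measured. Its deviation from the group mean correlated at 0.74 with TH, 0.53 with VGF, 0.54 with PCSK1N, -0.65 with SCG2 and -0.83 with SCG3. The other genes did not all follow their GC content. CHGA (62.45% GC) gave 0.03, DBH (62.28%) 0.39 and CHGB (51.42%) -0.57. DDC (48.73%) gave -0.17 and SCG5 (46.54%) -0.16. Group means of that slope were 0.0182 (vehicle) and 0.0296 (CBD) log2 per 10 points of GC at 24 h and -0.0301 and -0.00400 at 3 h, with SDs of 0.0173 to 0.0556. These correlations over 32 samples are descriptions, and their points share groups and libraries. With the GC correction, DBH, CHGA and CHGB stayed called at 6, 12 and 24 h.

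**Figure D3:**
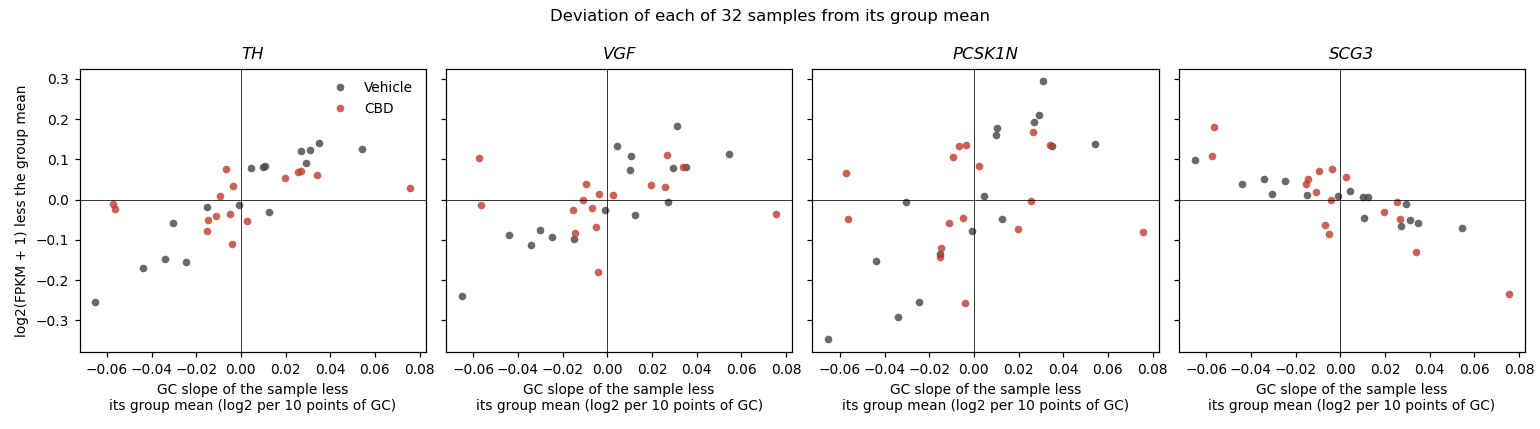
Deviation of log2(FPKM + 1) from the group mean (vertical) against the deviation of the sample's GC slope (horizontal, log2 per 10 points of GC) for TH, VGF, PCSK1N and SCG3, 32 samples each, vehicle grey and CBD red. Points rise to the right for TH (r = 0.74) and fall for SCG3 (r = -0.83). The GC-rich CHGA, not drawn, had r = 0.03.

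The cofactor of TH, tetrahydrobiopterin, is made and recycled by 6 genes that were all tested. None was called at 3 h and GCH1 alone, higher, at 6 h, where 4.07% of all genes were called higher and 6.13% lower. At 24 h 1 was higher and 2 were lower, where 20.8% and 21.3% of all genes were. GCH1, the rate-limiting step, measured 17.3 ± 0.531 FPKM in vehicle and 19.1 ± 0.676 with CBD (log2 fold change 0.14, adjusted p = 0.000628). SPR, sepiapterin reductase, measured 7.26 ± 0.477 and 6.12 ± 0.151 FPKM (-0.21, adjusted p = 0.000518). PCBD1, which returns the spent cofactor to the cycle, measured 63.2 ± 0.848 in vehicle and 57.9 ± 1.37 with CBD (-0.12, adjusted p = 0.000308). That call was lost under quantile normalization (0.0146, in a range of 1.81e-05 to 0.0146). The list's median was -0.13 at 24 h.

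Of 9 genes for transport, methylation and breakdown of catecholamines, 5 passed the filter, and SLC18A1, SLC6A3, PNMT and MAOB did not. PNMT, which makes adrenaline, was at 0.404 FPKM or less in every sample. At 12 h and at 24 h 2 were called higher and 2 lower, beside 8.85% and 11.2% of all genes at 12 h and 20.8% and 21.3% at 24 h. SLC18A2 (VMAT2), which loads monoamines into granules, measured 7.55 ± 0.113 FPKM in vehicle and 9.89 ± 0.715 with CBD at 24 h (0.35, adjusted p = 5.26e-06). SLC6A2, the noradrenaline transporter, measured 1.62 ± 0.137 FPKM in vehicle and 0.899 ± 0.0628 with CBD (-0.46, adjusted p = 4.85e-11). MAOA, which oxidizes monoamines, measured 4.03 ± 0.165 and 3.52 ± 0.206 (-0.16, adjusted p = 0.000288), a call lost with 24 h fitted alone (0.0110, in a range of 5.81e-05 to 0.0110). So DBH and SLC6A2, which make and take up noradrenaline, were both lower, and the vesicular transporter was higher.

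Prohormone processing was represented by 7 tested genes of 8. None was called at 3 h, and 3 were higher and 1 lower at both 12 and 24 h, beside the same shares of all genes (8.85% and 11.2%, then 20.8% and 21.3%). PAM, the copper enzyme that amidates peptide ends, measured 25.8 ± 0.497 FPKM in vehicle and 20.9 ± 0.420 with CBD at 24 h (-0.29, adjusted p = 9.15e-11). At 3 h its means were 20.0 in vehicle and 19.9 with CBD. QPCT, glutaminyl cyclase, measured 1.48 ± 0.117 in vehicle and 2.29 ± 0.217 with CBD at 24 h (0.40, adjusted p = 9.81e-07). CTSL, cathepsin L, measured 17.6 ± 0.664 and 21.3 ± 0.775 FPKM (0.26, adjusted p = 1.75e-08). The convertase PCSK1 and carboxypeptidase E were not called, with 0.08 and -0.02.

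Among 29 genes of granule biogenesis, docking and exocytosis, 24 were tested. The number called rose from 1 lower at 3 h through 4 lower at 6 h to 2 higher and 5 lower at 12 h. At 24 h 6 were higher and 5 lower, near the 20.8% and 21.3% of all genes, with a median of 0.02. Of all genes, 1.18% were called higher and 1.28% lower at 3 h. These shares were 4.07% and 6.13% at 6 h and 8.85% and 11.2% at 12 h. CPLX1, a complexin that clamps fusion, measured 10.3 ± 0.469 FPKM in vehicle and 13.5 ± 0.758 with CBD (0.36, adjusted p = 9.45e-05). RAB27B, a granule-docking GTPase, measured 1.48 ± 0.0831 in vehicle and 0.915 ± 0.0494 with CBD (-0.37, adjusted p = 1.12e-06). SYT11, a synaptotagmin that does not bind calcium, measured 74.7 ± 0.640 FPKM in vehicle and 58.2 ± 1.15 with CBD (-0.35, adjusted p = 2.40e-13). SNAP25, SV2C and RPH3A were the other lower ones, named after their values were seen.

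**Figure D4:**
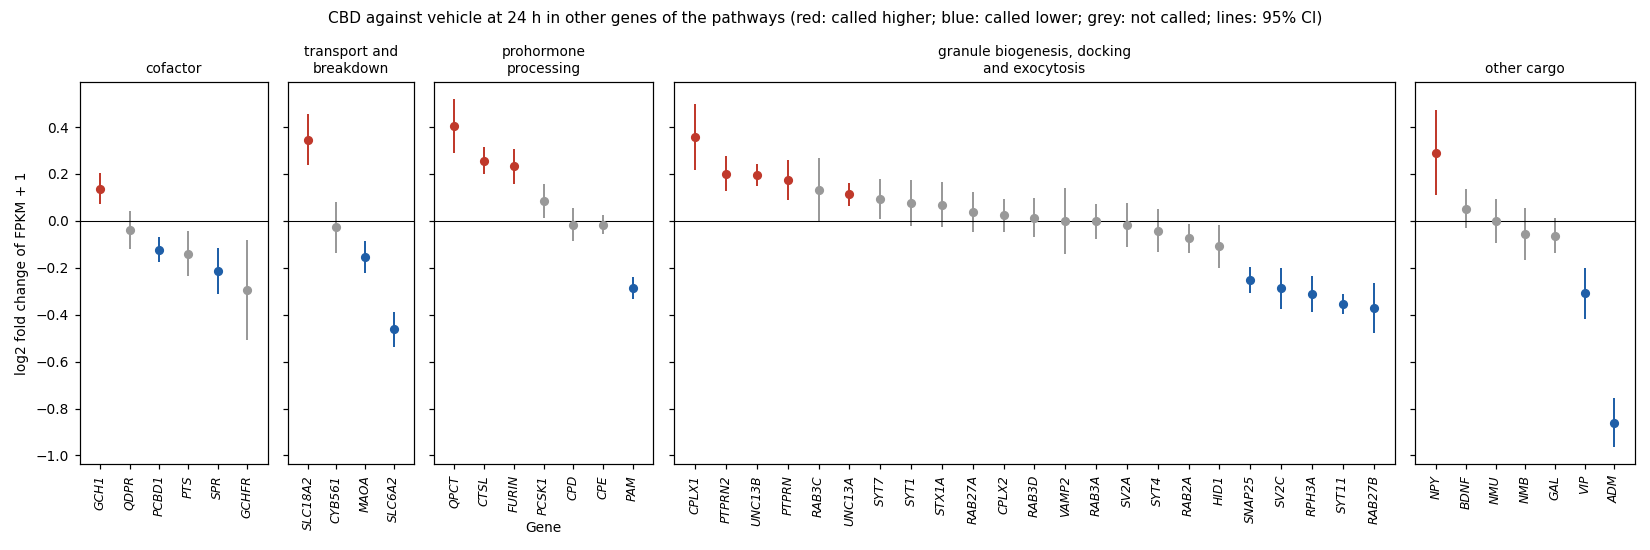
Log2 fold change of FPKM + 1 at 24 h (vertical, with 95% confidence intervals), CBD against vehicle, for tested genes of the 5 other lists, apart from those not reported here. Red points were called higher, blue lower and grey not called. Each panel holds both red and blue points, and ADM lies lowest at -0.86.

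Of 20 genes for neuropeptides and other granule cargo, 17 matched an entry and 7 were tested. At 24 h 1 was higher and 2 were lower, beside 20.8% and 21.3% of all genes. ADM, adrenomedullin, was already lower at 3 h (-0.23) and measured 36.0 ± 2.79 FPKM in vehicle and 19.4 ± 0.604 with CBD at 24 h (-0.86, adjusted p = 1.38e-13). At 3 h it missed the threshold under 3 alternatives (adjusted p of 0.0114 to 0.0354, in a range of 0.00142 to 0.0354) and without vehicle replicate 1, 2 or 3 or CBD replicate 2, 3 or 4 (0.0156 to 0.0237). VIP, vasoactive intestinal peptide, measured 21.3 ± 0.0255 and 17.0 ± 0.653 (-0.31, adjusted p = 2.16e-05). NPY, neuropeptide Y, measured 7.99 ± 0.299 and 10.1 ± 1.65 FPKM (0.29, adjusted p = 0.00719), a call lost under 5 alternatives (0.0116 to 0.0426, in a range of 0.00585 to 0.0426). Leaving out any 1 of 6 of the 8 samples ended it too, CBD replicates 1 and 4 being the exceptions. GAL, galanin, the most abundant of this list at a median of 375 FPKM, was not called (-0.06).

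The label of the cells was checked against marker genes. All 7 adrenergic neuroblastoma markers were detected in every sample, and their sum ranged from 2600 to 3489 FPKM. Of 6 markers of the mesenchymal state, VIM, TWIST1, CD44 and SNAI2 were tested. FN1, at 0.619 to 1.16 FPKM, and PRRX1, at 0.00894 FPKM or less, were not. The lists for Schwann and glial cells, keratinocytes and adrenal cortex summed to at most 1.74, 0.219 and 0.878 FPKM in any sample, and KRT5, TP63, NR5A1 and CYP17A1 were at or near 0. At 24 h the adrenergic sum was 2626 to 2706 FPKM in vehicle and 3212 to 3489 with CBD, most of it MYCN, which was called higher (0.54, adjusted p = 1.82e-12). Of the 7 adrenergic markers, 1 was called higher, 3 lower and 3 not called at 24 h, beside 20.8% higher and 21.3% lower of all genes. The lower ones included GATA2 (-0.28) and ISL1 (-0.38), transcription factors of the sympathetic lineage. The mesenchymal sum was 514 to 540 FPKM in vehicle and 552 to 611 with CBD, with SNAI2, TWIST1 and VIM called higher and CD44 lower. That is 3 higher and 1 lower of 4 tested, beside the same shares of all genes. These shifts appeared in the same 24 h comparison as the changes in DBH, CHGA and CHGB, and their part in those changes was not tested. At 6 h, with those genes already called lower, 1 adrenergic marker was called higher and 0 lower. The mesenchymal markers then had 0 higher and 1 lower, beside 4.07% higher and 6.13% lower of all genes.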

How the data were processed

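RNA sequencing of 32 cultures of SK-N-BE(2) cells was analysed, 4 in each of 8 groups. Per the labels and the study's methods, the authors trimmed reads with Trimmomatic (version 0.36 in the submitters' processing notes), aligned them to GRCh37 with TopHat2 (given as 2.2.1) and deposited FPKM per gene from Cufflinks, one table with a column per sample. A second deposited table held the authors' own Cuffdiff comparisons, with fold changes and q-values, and was not used. The values are scaled, so read depth is unknown; relative depth was estimated from 1414 low genes, in which 82.6% of values lay within 10% of a whole multiple of the lowest step.

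Values were tested as log2(FPKM + 1), with 1 added before the logarithm, in limma 3.58.1 (R 4.3.3) with 1 fit of 8 group means and a mean-variance trend. Of 22610 entries, the 12621 with a mean of at least 1 FPKM were tested, p-values were adjusted (Benjamini-Hochberg) within each of 7 comparisons, and an adjusted p under 0.01 was a call. The fit was tested on simulated data. No sample was dropped or imputed, and no 2 libraries were near-identical. Replicate numbers were checked for pairing over all genes and did not pair CBD with vehicle samples. In vehicle, TH and PCSK1N were lowest in replicate 4 at every time. Positions and GC content came from GENCODE on GRCh37 and promoters from RefSeq on GRCh38.p14.

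The 10 genes, the 5 other lists and the marker lists were chosen with earlier results of these data known. From each other list, up to 2 genes called higher and 2 called lower with the largest fold changes at 24 h were named. A few genes that this rule or the marker lists hold are counted but not reported here by name. Alternatives were other added values, other filters, median-ratio scaling, quantile normalization, relative depth as a term, the replicate block, a fit of only the times compared, a threshold of 0.05 and leaving out each sample. The correction for GC content and length, which covered 91.0% of tested genes, was added after seeing the data. Figures were drawn with matplotlib 3.10.9.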

Additional observations from a re-analysis of the deposited data

Results flagged for a closer look

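In 6 of 80 sets of 4 samples, 1 sample lay far from the other 3, where chance gives about 1 set in 20. DDC in vehicle at 24 h was 51.2 FPKM in replicate 3 and 49.6 to 49.7 in the others. CHGB in vehicle at 12 h was 45.0 FPKM in replicate 1 and 49.0 to 49.7 in the others. SCG2 was 127 FPKM in replicate 2 of vehicle at 6 h, with the others at 135 to 136, and 116 FPKM in replicate 1 of CBD at 3 h, with the others at 135 to 138. SCG5 was 29.1 FPKM in replicate 3 of vehicle at 12 h, against 27.0 to 27.2, and 30.4 FPKM in replicate 2 of vehicle at 24 h, against 31.0 to 31.1.

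The CBD effect at 24 h differed from that at 3 h, by the limma interaction test, for DBH (-1.45, adjusted p = 6.57e-13), CHGA (-0.97, adjusted p = 2.78e-09) and CHGB (-0.52, adjusted p = 9.41e-06) on the log2 scale. The differences for SCG3 (-0.28) and VGF (0.40) are a description, since the opposite movement of this pair was part of the choice of genes. For VGF the effect had the same sign at both times, 0.23 and 0.63.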

How the results depend on the processing

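Of 910 fold changes of the 10 genes recomputed under the alternatives, 877 kept their side of the threshold, 23 lost a call and 10 gained one, and of 640 with 1 sample left out 602 kept it and 38 lost a call. The sign changed in 4 and 13 of them, all of fold changes that were called in neither fit and were at most 0.11 in size. Counts of calls here include VGF and SCG3 and are no test of that pair. Without the pair, the main calls of 8 genes were 0 at 3 h, 3 lower at 6 h and 4 lower at 12 h. At 24 h they were 2 higher and 3 lower, and in the interaction 3 lower. With only the times compared in the fit, 2 genes were called at 6 h, CHGA and VGF (5 with all groups). Outside the pair, DBH and CHGB lost their 6 h calls in that fit and CHGA alone kept its call. In the interaction 3 were called, DBH, CHGA and CHGB (5 with all groups). Leaving out 1 sample gave 0 to 0, 4 to 5, 5 to 6 and 6 to 7 genes called at 3, 6, 12 and 24 h, 4 to 5 in the interaction, 7 to 7 in vehicle over time and 6 to 8 in CBD over time. The log2 change of SYT11 from 3 to 24 h with CBD turned to 0.027 under quantile normalization (adjusted p = 0.296). Over all genes, the calls at 3 h went from 310 to 29 and at 6 h from 1288 to 425 with only the times compared; with relative depth as a term they were 190 at 3 h, with the GC correction 494, and at a threshold of 0.05 they were 917 at 3 h and 2434 at 6 h. The cause was not tested. Over all genes, CBD and vehicle replicates with the same number did not deviate together (correlations of -0.076 to 0.094 over 16 pairs). Of the CBD samples, 5 of 16 matched best with their own number. Within vehicle some genes did keep an order. TH deviated from its group mean by 0.12, 0.08, 0.12 and 0.09 log2 in replicate 1 at 3, 6, 12 and 24 h. In replicate 4 it deviated by -0.25, -0.15, -0.17 and -0.15. PCSK1N and the GC slope were also lowest in vehicle replicate 4 at each time. A fit with the replicate block called 0, 5, 6 and 7 of the 10 genes at 3, 6, 12 and 24 h, 5 in the interaction, 7 in vehicle and 8 in CBD over time, as without it. That block is shared by both treatments, so it cannot model an order held in vehicle alone.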
